A study of Mus musculus with 13 samples.

Results

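Tnni1 and Tnnt2 are neighbouring troponin genes on mouse chromosome 1, and their locus was described here from peaks of H3K27ac, the acetylation of histone H3 at lysine 27. The members were the peaks lying wholly inside a 120 kb window, chr1:137650000-137770000 in build mm9, and numbered 515 of the 1117291 peaks in 12 peak lists. Within the window, Tnni1 was taken as about chr1:137676000-137708000 and Tnnt2 as about chr1:137732900-137748800. These intervals are approximate, and both genes run toward higher coordinates.

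Troponin is the calcium switch of the thin filament of striated muscle. Tnnt2 encodes cardiac troponin T, the subunit that anchors the complex to tropomyosin, and Tnni1 encodes slow skeletal troponin I, the subunit that inhibits contraction at low calcium. Tnnt2 is the heart form in the adult, but embryonic and newly differentiating skeletal muscle also express it, and Tnni1 is used in embryonic and slow muscle. H3K27ac is placed on nucleosomes at active promoters and enhancers, and a broad run of it inside a gene can mark an intragenic enhancer. In the GRCm38.p6 gene table the order along the chromosome is Csrp1, Phlda3, Tnni1, Lad1, Tnnt2 and Pkp1. Phlda3 encodes a small repressor of Akt signalling, Lad1 an epithelial anchoring filament protein and Pkp1 a desmosomal protein. None of these neighbours was placed among the peaks.

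All libraries came from C2C12, an established line of mouse myoblasts whose cells fuse into myotubes once serum is reduced. The edited lines, all sampled 48 h after the change to differentiation medium, were H1_KO, H3_KO, H23_KO, H34_KO and Myod1_KO. H1_KO and H3_KO lacked the regions the submitters call hotspots H1 and H3, H23_KO lacked H2 and H3, and H34_KO lacked H3 and H4, so 3 of the 4 hotspot lines shared the loss of H3. In H23_KO and H34_KO H3 was removed from cells that already lacked the other region. Myod1_KO carried a disruption of Myod1, whose product MyoD drives muscle differentiation. All edits were made with CRISPR/Cas9, and the differentiation medium was DMEM with horse serum. Unedited cells were sampled at -24, 0, 6, 12, 24, 48 and 72 h from the medium change, and the 48 h wild-type library was the one the edited lines were set against. The labels also describe a CRISPR control at 48 h, which was not analysed here. Every condition had 1 library, so no difference had a replicate check and no test between conditions was run. The labels do not say whether an edited line was 1 clone, and neither the Myod1 disruption nor a hotspot deletion can be checked from H3K27ac peaks.

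The promoter sequences are shown because the clearest differences between libraries lay at the start of Tnnt2 and inside the Tnni1 interval. They are the 250 bases before a RefSeq start on the plus strand in build GRCm38.p6, at chr1:135836084-135836333 for Tnnt2 and chr1:135799171-135799420 for Tnni1. Capitals mark CAGCTG, a form of the E-box that MyoD binds, and CATTCC, the core of the MCAT element first described in the chicken cardiac troponin T promoter and bound by TEAD factors. They were chosen with the sequences in view.
Tnnt2: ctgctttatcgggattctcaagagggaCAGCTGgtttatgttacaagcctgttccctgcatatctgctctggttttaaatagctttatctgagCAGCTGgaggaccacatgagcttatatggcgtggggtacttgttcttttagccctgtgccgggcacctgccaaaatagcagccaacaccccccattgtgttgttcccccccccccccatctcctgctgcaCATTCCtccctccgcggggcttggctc
Tnni1: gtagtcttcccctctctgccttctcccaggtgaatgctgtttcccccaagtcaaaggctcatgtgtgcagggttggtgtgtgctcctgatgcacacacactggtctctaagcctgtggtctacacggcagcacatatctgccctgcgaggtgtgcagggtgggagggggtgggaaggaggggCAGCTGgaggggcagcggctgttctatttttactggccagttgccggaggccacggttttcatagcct

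The Tnnt2 sequence held CAGCTG at 223 and 157 bases before the start and CATTCC at 27 bases before it. The table has another Tnnt2 start, at 4.22% of the gene's length, whose 250 bases held neither motif. The Tnni1 sequence held CAGCTG once, at 68 bases before the start, and no CATTCC. Both strands were searched, and the motifs did not overlap. Of the 32851 mouse promoters in the table, 13.0% held CAGCTG and 12.6% held CATTCC in the same 250 bases. Neither sequence held a match to the MEF2 or CArG consensus, which 1.69% and 1.47% of the promoters held. The table's start for the Tnnt2 sequence is within 0.119% of the gene's length of its first base there. The start used for Tnni1 lies 58.6% of the way along the gene in that table, so the first base of the Tnni1 interval was not taken as its promoter. That start was not placed on mm9. Peaks past the middle of the Tnni1 interval may therefore lie at it, which was not tested.

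The lists held 55585 to 137960 peaks and the window 9 to 57 of them. Read depth was unknown. The lists came in 2 formats: the time course libraries other than 48 h carried a score of no stated unit, and the 6 libraries at 48 h carried fold enrichment and −log10 p. The weakest listed peak had a −log10 p of 3.01 to 3.03 in the hotspot lines, 4.02 in Myod1_KO and 4.13 in wild-type cells at 48 h. Format and time cannot be told apart for that wild-type library. Position and extent of peaks were therefore compared, and their strengths only within a list.

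The window was densely acetylated in wild-type cells at every time. Its peaks covered 23.4 kb (-24 h), 29.0 kb (0 h), 27.3 kb (6 h), 35.4 kb (12 h), 19.9 kb (24 h), 17.3 kb (48 h) and 18.8 kb (72 h). They numbered 42, 44, 47, 57, 56, 29 and 41 in the same order. Coverage was thus widest at 12 h and narrowest at 48 h. When the genome was cut into 22016 tiles of the window's length, the tiles more fully covered than the window were 0.164% (-24 h), 0.150% (0 h), 0.241% (6 h), 0.150% (12 h), 0.368% (24 h), 1.39% (48 h) and 0.509% (72 h). The whole lists also differed in extent. The ratio of 72 h to -24 h coverage was 0.803 for the window, against a median of 0.925 over the 465 tiles with at least 10 kb covered at -24 h.

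**Figure D1:**
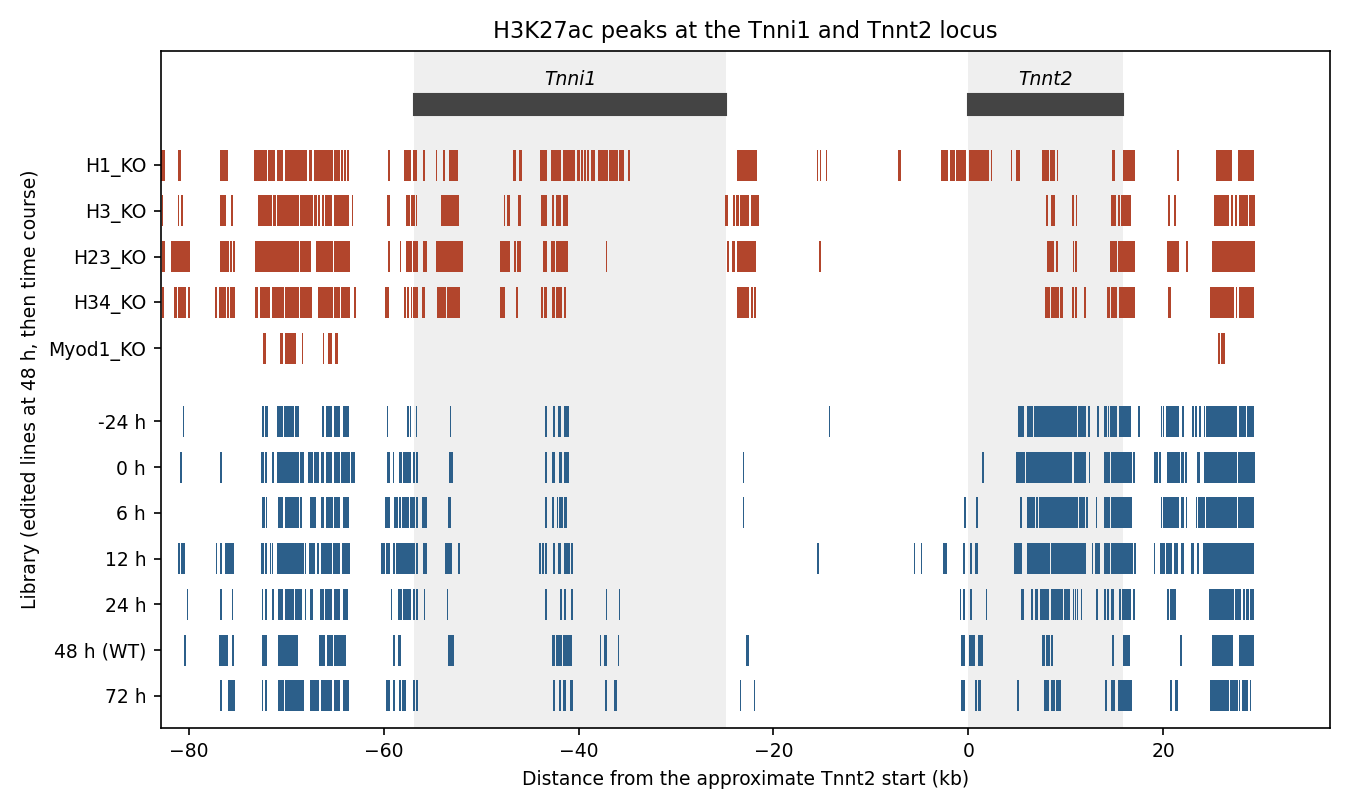
Every peak of the 12 lists in the window, 1 row per library, plotted by distance in kb from the approximate Tnnt2 start, with the gene intervals shaded and the edited lines above the time course. Peaks inside Tnnt2 formed a broad block up to 12 h, the start of Tnnt2 carried peaks in H1_KO and from 0 h on in unedited cells, and Myod1_KO had no peak in either gene.

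The widest acetylated block in myoblasts lay inside Tnnt2, away from its start. At -24 h a single peak of 4391 bp spanned chr1:137739630-137744020. It was the 14th widest of the 74764 peaks of its list and ranked 380 by the authors' score. At 0 h the corresponding peak was 4394 bp, at chr1:137739166-137743559, and at 6 h it was 3966 bp, at chr1:137740152-137744117. At 12 h its place was held by a peak of 3649 bp at chr1:137741358-137745006 and a neighbour. These peaks fell in the body of a gene that encodes a muscle structural protein, in cells that were not yet myotubes.

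That intragenic block was narrow in differentiated cells. Split into 3 near-equal parts of 5.3 kb each, the middle part of Tnnt2 was covered over 4900 bp (-24 h), 5079 bp (0 h), 4484 bp (6 h), 4615 bp (12 h), 3430 bp (24 h), 920 bp (48 h) and 1428 bp (72 h). The last part was covered over 3263, 3441, 3406, 4144, 1677, 191 and 1088 bp at the same times. All times up to 12 h were above all later ones in both parts. The widest peak inside Tnnt2 was 1228 bp at 24 h, at chr1:137741396-137742623, 606 bp at 48 h, at chr1:137732990-137733595, and 525 bp at 72 h, at chr1:137741852-137742376. At 48 h the widest peak thus lay next to the gene's start and no longer in its middle. For the whole gene the 72 h to -24 h ratio of covered bases was 0.398, against 0.929 for the whole lists. The 48 h to -24 h ratio was 0.265, against 1.69 for the whole lists.

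Acetylation past the end of Tnnt2, on the side of Pkp1, followed a similar course but was not as narrow at the late times. It covered 8261 bp (-24 h), 8735 bp (0 h), 8635 bp (6 h), 9050 bp (12 h), 5836 bp (24 h), 4530 bp (48 h) and 4957 bp (72 h). Its main element, a merged region at chr1:137756156-137762348, had a peak in all 12 lists. At 12 h that element was a single peak of 5271 bp at chr1:137756976-137762246, the widest peak of the window in any library. A second element spanned the end of the gene at chr1:137747455-137750076 and had a peak in 11 lists, all but Myod1_KO.

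Within 2 kb of its start, Tnnt2 showed the opposite course. No base was covered there at -24 h. Coverage was 245 bp (0 h), 359 bp (6 h), 730 bp (12 h), 670 bp (24 h), 1474 bp (48 h) and 1056 bp (72 h). Within 5 kb, however, coverage was highest at 12 h, with 1628 bp, against 1474 bp at 48 h and 1094 bp at 72 h. The first part of Tnnt2 was also covered most at 12 h, over 1144 bp, against 1105 bp at 48 h and 805 bp at 72 h. The peak nearest to the start was 5.1 kb away at -24 h, at chr1:137738012-137738608. At 0 h it was 1.4 kb away, at chr1:137734303-137734547, and from 6 h on it was within 0.3 kb. By strength within its own list, the nearest peak had a percentile of 25.7 (0 h), 17.4 (6 h), 61.2 (12 h), 14.8 (24 h), 57.2 (48 h) and 76.3 (72 h). It was thus among the weaker peaks of the list at 0, 6 and 24 h. At 24 h, however, a peak slightly farther off, chr1:137732350-137732550 before the start, had a percentile of 65.6.

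At 48 h, 3 wild-type peaks marked the start of Tnnt2. The one before it, chr1:137732195-137732563, had a fold enrichment of 10.6 over the peak caller's background and a −log10 p of 25.3. It overlapped a peak at 6, 12, 24 and 72 h but none before 6 h. The one just inside, chr1:137732990-137733595, had a fold of 7.06 and a −log10 p of 13.9, and overlapped a peak at 12, 24 and 72 h. The third, chr1:137733859-137734357, had a fold of 5.65 and overlapped a peak at 0, 12 and 72 h. Merging the 12 lists in the window gave 55 regions, and 3 of these were marked in unedited cells at 24, 48 and 72 h but not at -24 or 0 h. One of them was the region before the Tnnt2 start, chr1:137731645-137732691, and the others lay in Tnni1. The reverse pattern was found in 2 regions, chr1:137745205-137745411 in the last part of Tnnt2 and chr1:137752488-137753056 after it. Such regions were not counted outside the window, so whether these counts are unusual is unknown.

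**Figure D2:**
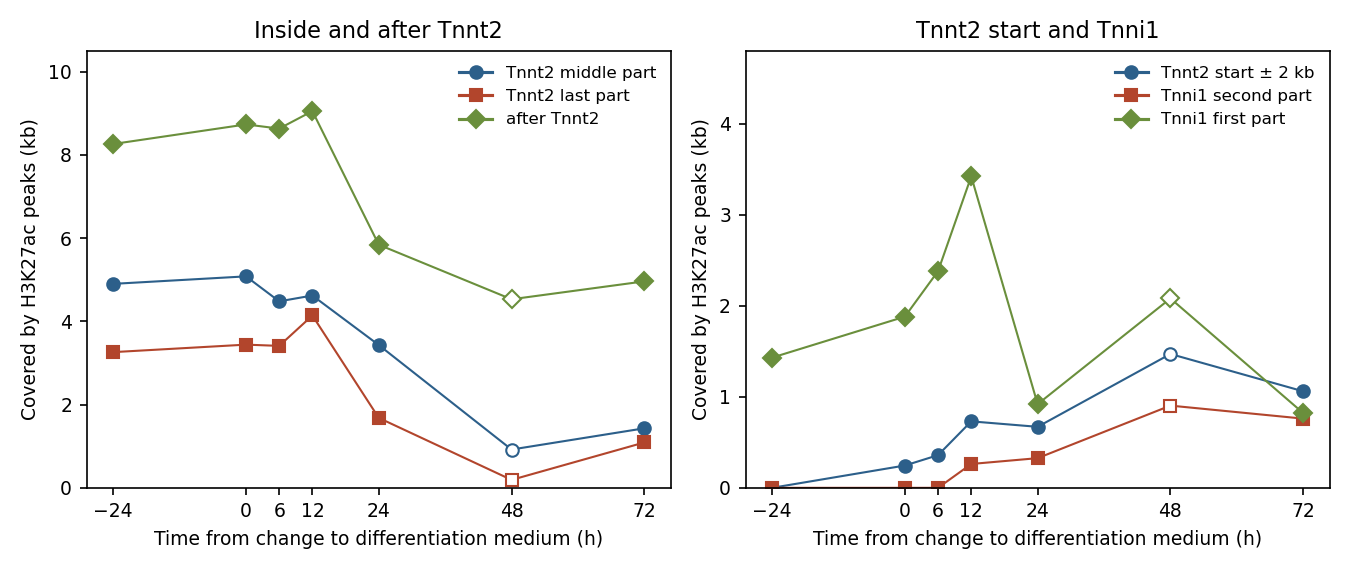
Kilobases covered by peaks against hours from the medium change, with 1 library per point and open symbols for 48 h, where the list came in the longer format. Left, the middle and last parts of Tnnt2 and the stretch after it stood highest up to 12 h. Right, the Tnnt2 start, taken within 2 kb, and the second part of Tnni1 stood highest at 48 and 72 h.

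Tnni1 was less covered than Tnnt2 in myoblasts. Its peaks covered 1433 bp (-24 h), 1879 bp (0 h), 2384 bp (6 h), 3680 bp (12 h), 1245 bp (24 h), 2983 bp (48 h) and 1581 bp (72 h), or 3.89% to 11.5% of the interval. No steady course with time was seen over the whole gene. The first base of the interval lay under a peak in the 4 hotspot lines and at 0, 6, 12, 24 and 72 h, the widest of which was 1893 bp at 12 h, at chr1:137674196-137676088. The nearest peak was 7.8 kb from it in Myod1_KO, 1.3 kb from it in wild-type cells at 48 h and 0.2 kb from it at -24 h. Cut at its middle, however, the gene had 2 unlike parts. The first part had peaks at every time, and its element at chr1:137690039-137692565 had a peak in 11 lists, all but Myod1_KO. The second part had no peak at -24, 0 and 6 h. It was covered over 262 bp (12 h), all of it the end of that same element, and over 326 bp (24 h), 903 bp (48 h) and 760 bp (72 h). These later values also include the end of that element. Its late regions were chr1:137694935-137695863 and chr1:137696015-137697530, each with a peak at 24, 48 and 72 h. The former was covered over 100, 479 and 218 bp at these times, the latter over 100, 191 and 212 bp. The RefSeq start used for Tnni1 also lies past the middle of the gene. Whether the late regions lie at that start or in the gene body was not tested.

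Counted peak by peak, most shares of the window's peaks without a peak at another time were near those of all peaks. Of the 42 peaks at -24 h, 7 had no peak at 0 h (16.7%, 95% Wilson interval 8.32 to 30.6), against 18.1% of all -24 h peaks. At 6 h 6 of them had none (14.3%, 6.72 to 27.8), against 21.2% of all. At 12 h 3 had none (7.14%, 2.46 to 19.0), against 17.3%. At 24 h 14 had none (33.3%, 21.0 to 48.4), against 35.6%. At 48 h 21 had none (50%, 35.5 to 64.5), against 33.5%, and at 72 h 19 had none (45.2%, 31.2 to 60.1), against 42.7%. In reverse, 15 of the 41 peaks at 72 h had none at -24 h (36.6%, 23.6 to 51.9), against 37.4% of all 72 h peaks. At 48 h the share of all peaks lay below the interval, and at the other times it lay inside it. The intervals cover counting error only, and neighbouring peaks are not independent.

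In Myod1_KO neither gene carried a peak. Its 9 peaks in the window covered 3284 bp, against 17343 bp in wild-type cells at 48 h, a ratio of 0.189. They fell into 2 groups. Before Tnni1 there were 7, the widest at chr1:137662769-137663859 with a fold of 13.0, and after Tnnt2 there were 2, at chr1:137758566-137758690 and chr1:137758860-137759231. Between them ran 90.4 kb without a peak, chr1:137668183-137758565, which held both troponin genes. The longest peak-free run of the window in wild-type cells at 48 h was 21.8 kb, and over the other 10 libraries it was 10.9 to 34.8 kb.

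The knockout list was the shortest of the 12 and covered 18.3 Mb of the genome, against 45.4 Mb in wild-type cells, a ratio of 0.403. Over the 1146 tiles with at least 10 kb covered in wild-type cells, the median ratio was 0.377, and 16.9% of tiles had a lower ratio than the window. Myod1_KO had no peak at 23 of the 29 wild-type peaks in the window (79.3%, 61.6 to 90.2), against 57.5% of all wild-type peaks. The 6 that had one were 5 of the 10 before Tnni1 and 1 of the 4 after Tnnt2. None of the 7 wild-type peaks in Tnni1, the 2 between the genes or the 6 in Tnnt2 had one. Of the 9 knockout peaks, 1 had no wild-type peak (11.1%, 1.99 to 43.5), against 25.5% of all knockout peaks. The knockout did not carry the broad myoblast block inside Tnnt2 either, which covered 4900 bp of the middle part at -24 h. How far the short list accounts for these absences was not tested.

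The 4 hotspot lines covered the window more widely than wild-type cells. Coverage was 34155 bp in H1_KO, 24348 bp in H3_KO, 32899 bp in H23_KO and 28863 bp in H34_KO, against 17343 bp in wild-type cells. The ratios to wild type were 1.97, 1.40, 1.90 and 1.66 in the window, against 1.56, 1.29, 1.80 and 1.61 for the whole lists. Each of these lists held more peaks than that of wild-type cells. Over the 1146 tiles with at least 10 kb covered in wild-type cells the median ratios were 1.43, 1.25, 1.52 and 1.43, and 83.2%, 63.5%, 71.8% and 66.9% of tiles had a lower ratio than the window. Where in the window the acetylation lay also differed among the lines.

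At the start of Tnnt2, H1_KO had wide peaks and the 3 lines without H3 had none. Within 2 kb of the start, H1_KO was covered over 3372 bp, H3_KO, H23_KO, H34_KO and Myod1_KO over 0 bp each, and wild-type cells over 1474 bp. H1_KO carried a peak of 2092 bp at chr1:137732959-137735050, with a fold of 13.6 and a −log10 p of 32.5, and one of 1000 bp before the start at chr1:137731645-137732644, with a fold of 10.7. The peak nearest to the start was 7.9 kb away in H3_KO, at chr1:137740847-137741068, 8.1 kb away in H23_KO and 7.8 kb away in H34_KO, against 0.1 kb in wild-type cells. Within 5 kb of the start these 3 lines and Myod1_KO still had no covered base, against 1474 bp in wild-type cells.

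The second part of Tnni1 showed the same contrast. H1_KO was covered over 4392 bp there, H3_KO over 75 bp, H23_KO over 135 bp, H34_KO and Myod1_KO over 0 bp, and wild-type cells over 903 bp. In H1_KO a run of 11 peaks extended over the element at chr1:137690039-137692565 and on through both late regions to chr1:137698219. The 75 bp in H3_KO belonged to a peak at the very end of the interval, chr1:137707926-137708226. The peak in H23_KO, at chr1:137695683-137695817, overlapped the wild-type peak at chr1:137695474-137695759. The first part of Tnni1 did not show this contrast, with 4895 bp in H1_KO, 4563 bp in H3_KO, 7356 bp in H23_KO and 5300 bp in H34_KO, against 2080 bp in wild-type cells.

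**Figure D3:**
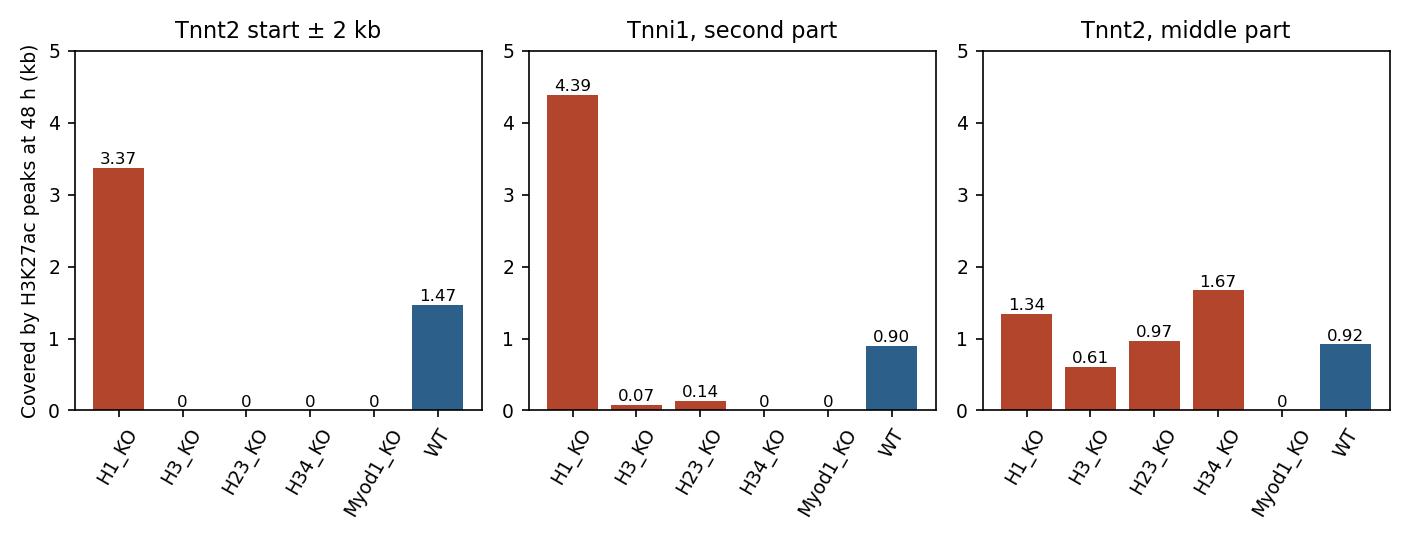
Kilobases covered by peaks at 48 h in the 5 edited lines and, at the right of each panel, in wild-type cells, 1 library per bar. At the Tnnt2 start and in the second part of Tnni1 only H1_KO stood above wild type and the lines without H3 were at or near 0, while the middle part of Tnnt2 had peaks in all 4 hotspot lines.

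Wild-type peaks with a peak in H1_KO and none in H3_KO, H23_KO and H34_KO made up 6 of the 29 in the window (20.7%, 9.85 to 38.4), against 4.74% of all wild-type peaks. All 6 lay in or at the genes. They were the 3 peaks at the Tnnt2 start, the peak at chr1:137740462-137740722 in the middle part of Tnnt2, and the peaks at chr1:137695046-137695238 and chr1:137696890-137697080 in the second part of Tnni1. None of the 6 had a peak in Myod1_KO, as all lay within its 90.4 kb run without a peak. A peak in 1 hotspot line alone, other than H1_KO, was found once in the window, in H23_KO, and in 0.391% (H3_KO), 1.41% (H23_KO) and 1.86% (H34_KO) of all wild-type peaks. The H1_KO list was the longest of the 4, and its part in the count was not tested. With the 55585 strongest peaks of every list, 6 peaks showed the pattern, 5 of them shared with the 6 above. The peak at chr1:137696890-137697080 was not among them, and that at chr1:137695474-137695759 was. The pattern is one the series shows at many other loci, and this locus was chosen with that known.

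In all, 5 of the 29 wild-type peaks were without a peak in H1_KO (17.2%, 7.60 to 34.5), against 16.2% of all wild-type peaks. The number was 11 in H3_KO (37.9%, 22.7 to 56.0), against 26.0%, and 8 in H23_KO (27.6%, 14.7 to 45.7), against 18.2%. It was 10 in H34_KO (34.5%, 19.9 to 52.7), against 18.0%. Of these 4 lines, H34_KO was the one whose interval lay wholly above the share of all peaks. The 5 peaks missing in H1_KO were all outside the genes, 4 before Tnni1 and 1 after Tnnt2. In Tnni1, H1_KO had a peak at all 7 wild-type peaks, H3_KO at 4, H23_KO at 5 and H34_KO at 4. In Tnnt2, H1_KO had one at all 6, and the 3 lines without H3 at 3 each. These comparisons share the wild-type library.

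The hotspot lines also had peaks that wild-type cells at 48 h lacked. Such peaks made up 31 of 54 in H1_KO (57.4%, 44.2 to 69.7, against 55.6% of its list), 27 of 48 in H3_KO (56.2%, 42.3 to 69.3, against 48.6%), 21 of 39 in H23_KO (53.8%, 38.6 to 68.4, against 59.4%) and 28 of 49 in H34_KO (57.1%, 43.3 to 70.0, against 56.2%). The shares were near those of the whole lists in each line. One region of this kind, chr1:137684802-137685854 in the first part of Tnni1, had peaks in the 3 lines without H3 and in no other library, over 401 bp in H3_KO, 1042 bp in H23_KO and 560 bp in H34_KO. Another, chr1:137686155-137687043, had peaks in all 4 hotspot lines and in no time course library. Neither pattern was counted over the genome, and both regions were named after their values were seen. Between the genes, chr1:137709084-137711443 was covered over 2074 bp in H1_KO, 2137 bp in H3_KO, 2025 bp in H23_KO and 1593 bp in H34_KO, against 336 bp in wild-type cells.

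**Figure D4:**
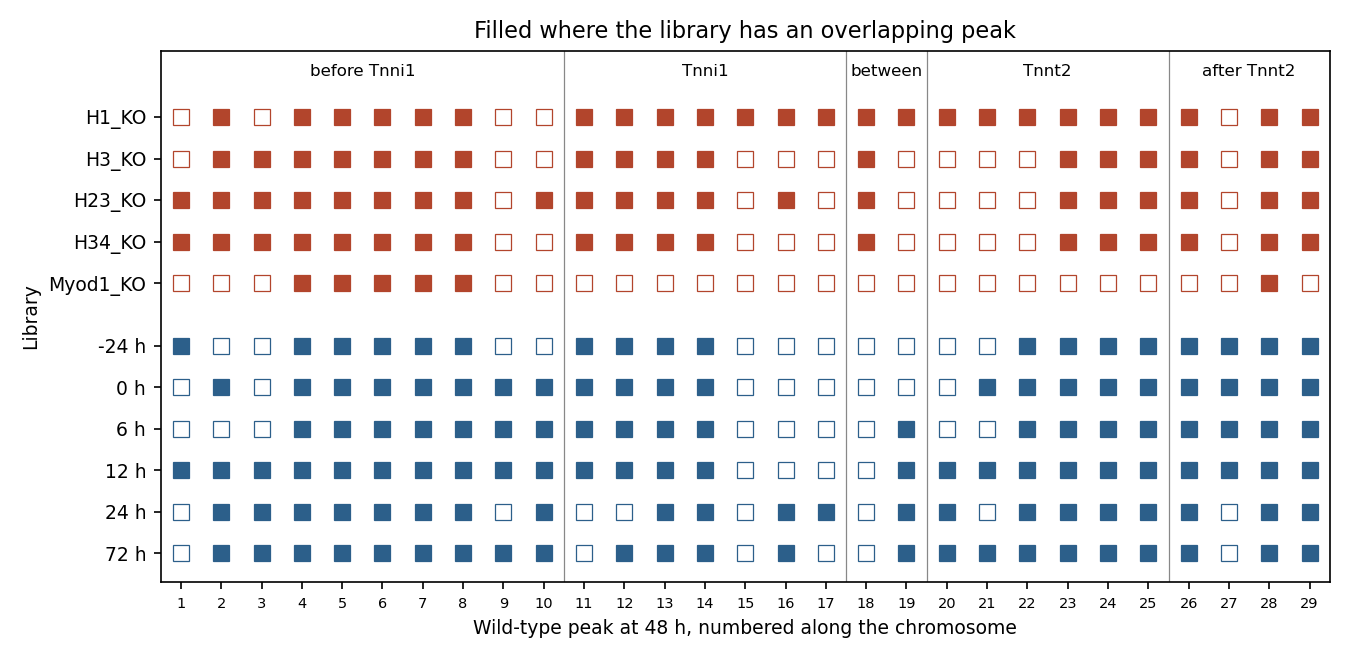
The 29 wild-type peaks of the window at 48 h, numbered along the chromosome, with a filled square where a library had an overlapping peak; edited lines stand above the other times. Peaks 19, 20 and 21 at the Tnnt2 start were filled in H1_KO and empty in the lines without H3 and in Myod1_KO, and peaks 4 to 8 before Tnni1 were filled in every library.

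The middle part of Tnnt2, where the myoblast block had been, was covered over 1343 bp in H1_KO, 609 bp in H3_KO, 970 bp in H23_KO and 1674 bp in H34_KO, against 920 bp in wild-type cells at 48 h. None of the 5 edited lines thus came near the 4900 bp seen at -24 h. The 2 wild-type peaks there at chr1:137740834-137741257 and chr1:137741389-137741623 had a peak in each hotspot line and at every time, and none in Myod1_KO. The last part was covered over 408 bp in H1_KO, 1364 bp in H3_KO, 1562 bp in H23_KO and 1890 bp in H34_KO, against 191 bp in wild-type cells.

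The stretch before Tnni1 was the one stretch with more than 2 kb covered in every library. It was covered over 10852 bp in H1_KO, 10517 bp in H3_KO, 13328 bp in H23_KO, 12614 bp in H34_KO and 2787 bp in Myod1_KO, against 6909 bp in wild-type cells at 48 h. The wild-type peak at chr1:137662013-137664046, with a fold of 16.2 and a −log10 p of 46.4, was the strongest of the window by both values and had a peak in all 11 other libraries. The merged regions with a peak in all 12 lists were 3, chr1:137659608-137667665 and chr1:137667715-137669407 before Tnni1 and the element after Tnnt2. Another 5 regions had a peak in 11 lists, and Myod1_KO was the missing one each time. Its list was the shortest of the 12, and such regions were not counted over the genome. Of the 6 wild-type peaks with a peak in every library, 5 lay in this stretch and none in a troponin gene.

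Peaks joined across gaps of the length commonly used to stitch enhancers formed a domain over Tnnt2 of 24.2 kb (-24 h), 28.0 kb (0 h), 29.8 kb (6 h), 44.9 kb (12 h), 30.2 kb (24 h), 30042 bp (48 h) and 29.8 kb (72 h). It was 21.4 kb in H3_KO and H23_KO and 21.5 kb in H34_KO, and began inside the gene in these lines, at chr1:137740847, chr1:137740953 and chr1:137740744, against chr1:137732195 in wild-type cells. In H1_KO alone both genes fell into 1 domain, of 206.0 kb, and in Myod1_KO no domain overlapped either gene. The order of widths depended on the joining distance. Joined within 5 kb, the Tnnt2 domain was 21432 bp in H3_KO, 21396 bp in H23_KO and 21523 bp in H34_KO, against 2163 bp in wild-type cells at 48 h, where the peaks at the start then stood apart from the rest. Over Tnni1, at the longer joining distance, the domain was 66.8 kb in H3_KO, 162 kb in H23_KO and 334 kb in H34_KO, reaching beyond the window in each. In unedited cells it was 66.7 kb (-24 h), 136 kb (0 h), 136 kb (6 h), 75.7 kb (12 h), 72.0 kb (24 h), 44.7 kb (48 h) and 6.48 kb (72 h). At every time up to 24 h it also reached beyond the window. Where several domains overlapped the gene, the width is that of the one overlapping it most. At 72 h that domain began at chr1:137690306, and the peaks at the first base of the interval belonged to another domain. The 72 h width is therefore not that of the whole run of peaks over Tnni1.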

How the data were processed

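H3K27ac peak lists of 12 C2C12 libraries, 1 per condition, were used; the CRISPR control was left out, as its peaks were not analysed here. The authors' peaks, 1 list a library, came, per the submitters' processing notes, from MACS2 2.1.0 with genome build mm9. The sources used here name no aligner, read filter, control library or cutoff. The deposited lists of -24, 0, 6, 12, 24 and 72 h held a score without a unit. The deposited 48 h lists held a score of 10 times the −log10 p, the fold enrichment ratio at the summit, −log10 p-values and q-values, and a summit offset. Strength was used within a list only.

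Bases under peaks were counted after merging within a list. Peaks were shared at an overlap of 1 base. Shares carry 95% Wilson intervals. Tiles of the window's length, domains and merged regions served as descriptions. Named peaks were the wild-type peaks at 48 h, the widest of each library and those nearest the gene starts; others were chosen after their values were seen, as were the split of the genes into equal parts, the tile minimum of 10 kb and the 2 kb around the Tnnt2 start. The members and lists were chosen with earlier results of these data known. No mm9 genome was used, so no peak sequence was read and other troponin genes were not placed. Promoter sequences came from RefSeq (GRCm38.p6), where both genes matched by symbol. Overlap code was tested on simulated peaks. Computation used pandas 2.3.3 and numpy 2.4.6 under Python 3.11.15, and drawing matplotlib 3.10.9.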

Additional observations from a re-analysis of the deposited data

Results flagged for a closer look

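In 3 stretches H1_KO lay above wild-type cells at 48 h while H3_KO, H23_KO and H34_KO all lay below. Within 2 kb of the Tnnt2 start, H1_KO exceeded wild type by 1898 bp of covered bases. In the first part of Tnnt2 it exceeded wild type by 1611 bp. That part overlaps the stretch around the start, and the H1_KO peak at chr1:137732959-137735050 contributed to both. In the second part of Tnni1 it exceeded wild type by 3489 bp. With 1 library a line, the difference between the lines was not tested.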

How the results depend on the processing

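No paired analysis was possible because each condition had 1 library, and for the same reason none could be left out. Alternatives around the Tnnt2 start, in its middle part and for the H1_KO pattern were chosen after the data were examined. Of 161 alternatives, 126 left the value within 1.5 times (shares: within the interval) and 35 did not. A stricter threshold (q under 0.001 or a score of at least 5) moved none. A common −log10 p of 4.13 at 48 h and an overlap of 50% of the shorter peak moved none either. No list had a peak over the window's edges, so including such peaks could not move a value. Among the 126 are other settings that could not move a value. These are values of 0 bp with fewer peaks kept, and Myod1_KO at 55585 peaks, its full list. The common −log10 p was applied to peak counts, shares and the H1_KO pattern, and not to covered bases. The stricter threshold was not applied to coverage around the Tnnt2 start or in its middle part. With peaks within 1 kb merged, which lowers counts by construction, the window held 10, 12, 10, 12, 16, 17 and 15 peaks from -24 to 72 h, 18 in H1_KO, 15 in H3_KO, H23_KO and H34_KO and 4 in Myod1_KO. With the 55585 strongest peaks of each list, which shortens all other lists by construction, it held 37 at 12 h. It then held 25 in H1_KO, 30 in H3_KO, 20 in H23_KO and 26 in H34_KO, against 25 in wild-type cells at 48 h. Coverage around the Tnnt2 start was then 0 bp at 0 and 6 h and 201 bp at 24 h, and that of the middle part of Tnnt2 672 bp in H1_KO and 840 bp in H34_KO. Within 5 kb of the start, 12 h had 1628 bp, above the 1474 bp at 48 h and the 1094 bp at 72 h. Joined within 5 kb, the Tnnt2 domain was 16465 bp in H1_KO and 2163 bp in wild-type cells at 48 h, which turned round its order against H3_KO, H23_KO and H34_KO. The Tnni1 domain was then 12065 bp in H1_KO, 42426 bp in H3_KO, 46485 bp in H23_KO and 42221 bp in H34_KO, against 6898 bp in wild-type cells at 48 h, and 19382, 30578, 19462, 31236 and 7664 bp from -24 to 24 h. These domains, each the one overlapping its gene most, were not the same element in every library. Over Tnni1 the domain began at chr1:137686155 in H1_KO and at chr1:137649396 in H3_KO. Over Tnnt2 it ended at chr1:137734357 in wild-type cells at 48 h and began at chr1:137740847 in H3_KO. Depth was unknown, so weak peaks, such as those at the Tnnt2 start at 0 and 6 h, may be missing from other lists.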
